A study of Macaca mulatta and Mus musculus and Rattus norvegicus with 12 samples.

Results

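The calvaria, the vault of flat bones that covers the brain, was compared here across mouse, rat and rhesus macaque by the rank of each gene within its own library. The members were the 6 calvaria libraries of a series of 12, that is M4 and M8 from mouse, R1 from rat, and G1, G3 and T1 from macaque. The other 6 libraries came from the tibia of the same species (M5 and M7, R3, and G2, G4 and T2) and are given only beside the calvaria. The study describes both bones as taken from the same individuals, but the labels do not say which calvaria and tibia libraries share animals, so the sites were compared without pairs. Genes were matched by symbol, and 9767 symbols were present in the tables of all 3 species, out of 38599 in mouse, 35259 in rat and 28641 in macaque. Each mouse library was a pool of 3 C57BL6 mice of 4 months, each rat library a pool of 2 Wistar rats of 6 months, and each macaque library came from 1 rhesus macaque. The labels give the macaques as 4 to 6 months old and the study's methods as 4 to 6 years old. None of the animals carried a transgene or received a treatment in these labels, and the methods describe all of them as female. Dissection tools differed, with scissors for the rodent skulls, where sutures and diploe were avoided, and a saw for macaque bone. Mouse and rat tibias were cut open and spun to remove marrow, a step that the methods describe for no other bone. Periosteum was taken off in each case, and a collagenase digestion of 3 to 5 min followed. The rodent libraries ran on sequencer lane 3 and those of macaque on lane 4, so species, lane, genome and annotation cannot be told apart in any contrast between macaque and the rodents. Levels were therefore not tested between species. The value given for a gene is its percentile rank within a library, from reads per kilobase of exonic length among the 9767 shared symbols, where 100 is the highest.

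Calvarial bone forms directly from mesenchyme, in part of cranial neural crest origin, whereas the tibia forms on a cartilage model and carries the positional HOX code of the limb. Osteoblasts lay down type I collagen and mineral and become osteocytes, the cells buried in the matrix, which signal to osteoblasts and to bone-resorbing osteoclasts through secreted antagonists of the Wnt pathway, cytokines and phosphate regulators. Flat bones also enclose marrow spaces in which neutrophils, red cells and megakaryocytes are made.

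The 6 calvaria libraries held between 8362272 and 15573952 reads on genes, and the shared symbols took between 46.1% and 58.0% of them. Between 75.4% and 86.5% of the shared symbols had a read in a given library. A symbol with 0 reads receives a tied lowest percentile, which was 6.76 in M4, 7.75 in M8, 9.38 in R1, 11.2 in G1, 12.3 in G3 and 10.8 in T1. An absence of reads can come from the annotation of a genome as well as from the tissue, and these cannot be told apart in a single species.

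Library M8 stood apart from the other mouse libraries and went against the description of the animals. Xist, the RNA that coats the inactive X chromosome, had 2 reads in M8 against 11106 in M4, 15771 in M5 and 12083 in M7. The Y-linked genes DDX3Y, EIF2S3Y and UTY had 1049, 512 and 200 reads in M8 and 0 in each of the other 3 libraries. In all, 17 mouse genes had at least 100 reads in M8 and at most 3 in every other mouse library, 12 had the reverse pattern, and no gene did so for M4, M5 or M7. The labels give no substrain, and the genotype was not tested. For named shared genes M4 and M8 are therefore given separately, and counts over all shared symbols are also given without M8. The number of members in the top 25% of all calvaria libraries changed without M8 for 3 of the 33 gene lists described here (endothelial and pericyte, neural and glial, and glycolysis genes).

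The calvaria libraries shared much of their rank order. Between the species, Spearman's rho over the 9767 symbols had a median of 0.692 over 11 pairs of calvaria libraries. It was 0.792 for M4 and 0.817 for M8 against rat, 0.687 to 0.707 for mouse against macaque, and 0.662 to 0.681 for rat against macaque. The closest pair of species was thus mouse and rat, which also shared the lane. Within species it was 0.960 for M4 with M8 and 0.968 to 0.974 among the macaques. The 2 mouse tibia libraries correlated at 0.989, above the calvaria pair that holds M8. Between species the tibia libraries had a median of 0.675, and without M8 the calvaria median was 0.689. These correlations run across genes, which are not independent replicates, and points of 1 pair share base composition, gene length and the symbol match. The absolute difference between M4 and M8 had a median of 3.73 percentile points with a 95th percentile of 16.7, and the range over the 3 macaques had a median of 3.97 and a 95th percentile of 19.7.

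**Figure D1:**
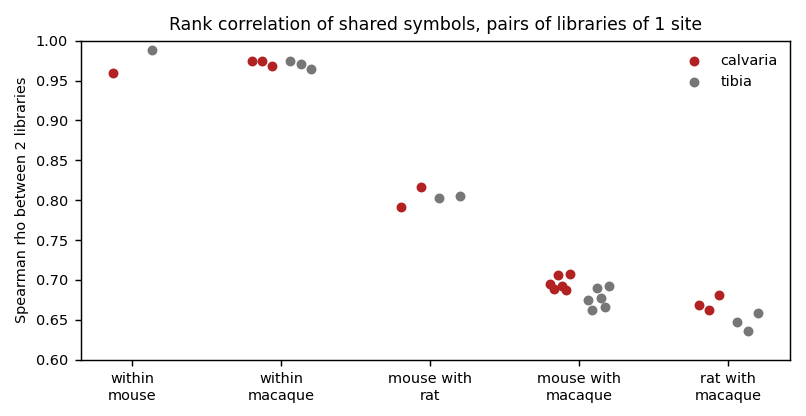
Spearman's rho (y axis, no unit) between pairs of libraries of the same site over 9767 shared symbols, grouped by species pair; each point is 1 pair, calvaria in red and tibia in grey. Calvaria pairs within a species lie at 0.960 to 0.974, mouse with rat at 0.792 to 0.817, and pairs with macaque at 0.662 to 0.707.

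A common high end of the calvaria transcriptome was defined as the symbols in the top 10% of all 6 libraries, and it held 328 symbols (3.36%). Of these, 268 (81.7%) were also in the top 10% of all 6 tibia libraries. Without M8 the common high end held 344 symbols, 277 of them also in the top 10% of the tibias. Among the 100 highest symbols of each species, 29 were common to the 3 species (28 without M8), while mouse and rat shared 54 (51 without M8), mouse and macaque 44 (46 without M8), and rat and macaque 38. Of those 29, 22 were also common to the 3 species in the tibia (23 of the 28 without M8).

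The 29 symbols held proteins of bone matrix beside proteins of neutrophil granules. Among them were COL1A1, the main chain of type I collagen, and the acidic matrix proteins SPP1 and IBSP. COL1A1 lay at percentile 99.9 in every calvaria library. SPP1, osteopontin, lay at 99.9, 99.7, 99.8, 99.7, 99.5 and 99.6 in M4, M8, R1, G1, G3 and T1, and IBSP, bone sialoprotein, at 99.5, 98.8, 99.3, 99.5, 99.5 and 99.5. These 3 matrix genes thus kept almost the same place in all libraries. S100A8, S100A9, CAMP, MPO and CTSG, products of neutrophils and their precursors, were among the 29 too. S100A8, a subunit of calprotectin, had 511321 reads in M4, 515950 in M8, 198380 in R1, 127189 in G1, 173904 in G3 and 212262 in T1, and CAMP, the cathelicidin precursor, stood at 100 in all 6. The remaining members included antigen presentation genes (B2M, CD74), the selenium carrier SEPP1, the antioxidant enzymes GPX1 and SOD1, ATP synthase subunits (ATP5A1, ATP5E, ATP5O), and the transcription factor ATF4, which osteoblasts need for collagen synthesis.

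Lists of genes by role were ranked in the same way, and a list is described by the median percentile of its members in each library, beside 10.9% of all shared symbols (1069, or 1127 without M8) that lay in the top 25% of all 6 libraries. Of the 33 lists, 6 had a median above 75 in every calvaria library: neutrophil, respiratory chain, erythroid, osteocyte, cell cycle and ribosomal protein genes. The neutrophil median was 99.3 or higher in each, with 6 of 9 members in the top 25% of all 6 libraries. The osteocyte median was 93.8, 85.5, 83.9, 93.5, 93.0 and 92.1 in M4, M8, R1, G1, G3 and T1, with 6 of 11. Limb factors and HOX genes lay near the bottom, with medians between 9.38 and 23.3 and no member in the top 25% of all 6.

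**Figure D2:**
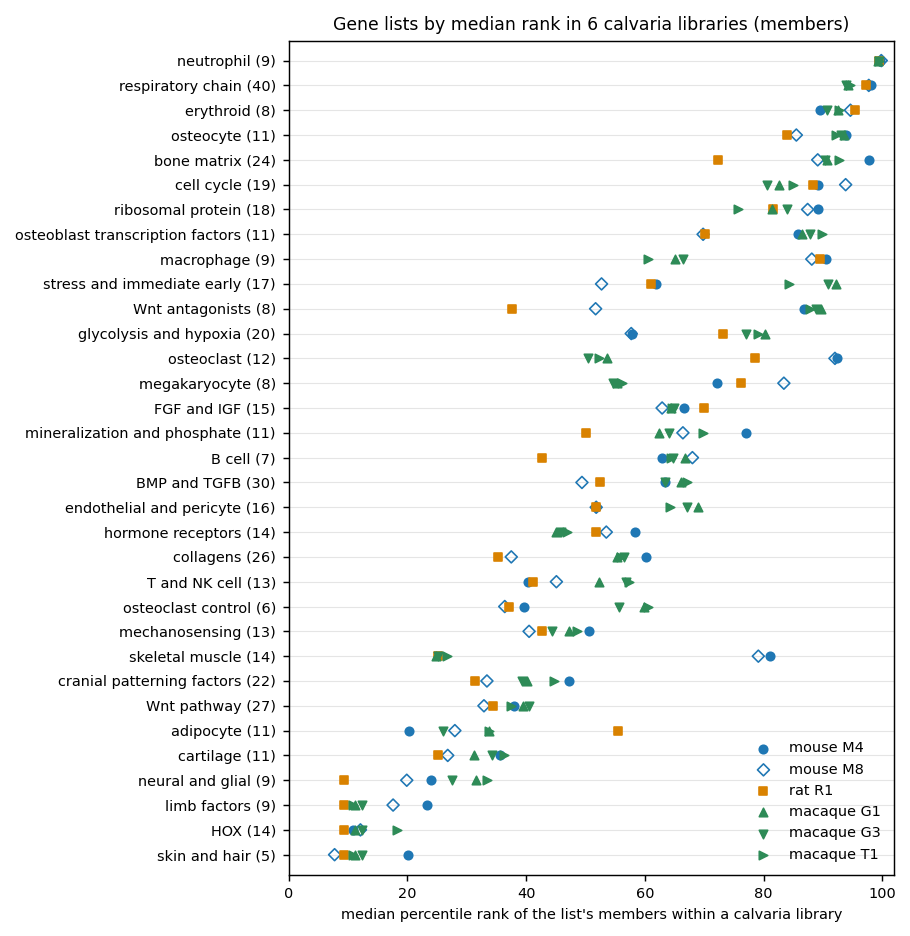
Median percentile rank (x axis) of the members of each of 33 gene lists (y axis, number of shared members in brackets) in the 6 calvaria libraries; mouse in blue (open for M8), rat in orange, macaque in green. Neutrophil genes lie at 99.3 or above in all 6 libraries, the skeletal muscle list lies at 81.1 and 79.1 in mouse and near 25 in rat and macaque, and the stress list lies at 84.2 to 92.1 in macaque and 52.7 to 61.9 in the rodents.

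The labels name the material as osteocytes. The defining osteocyte markers DMP1 and MEPE ranked high in every library, but neutrophil genes took far more of the per-kilobase level. The 9 shared neutrophil genes made up 50.4% and 57.7% of the summed per-kilobase level of shared symbols in M4 and M8, 45.4% in R1, and 23.6%, 29.8% and 31.9% in G1, G3 and T1. The 11 osteocyte genes made up 0.192% and 0.111% in mouse, 0.0901% in rat and 0.971%, 0.742% and 0.839% in macaque. Bone matrix genes made up 5.60% and 1.86% in mouse, 1.5% in rat and 5.94%, 4.20% and 8.29% in macaque. These shares are of levels divided by exonic length, and in reads the order against matrix genes can differ. COL1A1 had 184400, 175096 and 323135 reads in G1, G3 and T1, against 153589, 233280 and 249284 of the neutrophil gene CAMP. The neutrophil order rests on S100A9, which made up 25.4%, 29.8% and 32.4% in M4, M8 and R1 and 0.198%, 0.277% and 0.371% in G1, G3 and T1. Without S100A9, an alternative added after seeing the data, the other 8 genes made up 25% and 27.9% in mouse, 13.0% in rat and 23.4%, 29.5% and 31.6% in macaque, so that mouse and macaque overlapped. The osteocyte shares were highest in macaque, but SOST is not among the shared symbols and is not in them. In bulk RNA, fewer cells of a type and less RNA per cell cannot be told apart, and how far the neutrophil share moved other ranks was not tested.

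Among the osteocyte genes, MEPE, a matrix phosphoglycoprotein of mineralised bone, was at percentile 98.6 in M4, 97.7 in M8, 95.7 in R1, and 99.9, 99.8 and 99.9 in G1, G3 and T1. DMP1, which is needed for osteocyte maturation and phosphate balance, lay at 94.1, 89.1, 89.1, 96.2, 96.8 and 96.9 in the same order. GJA1, the connexin that joins osteocyte processes, lay at 97.9, 95.7, 96.3, 98.6, 98.6 and 99.0. For each of these 3 genes every macaque library lay above every rodent library, by a narrow margin for GJA1. The same held for 3427 of all shared symbols (35.1%), so this order is common.

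CD44, the hyaluronan receptor, was ordered the other way, at 98.2, 97.3 and 92.8 in the rodents and 91.7, 90.9 and 92.1 in the macaques. PHEX, the endopeptidase that restrains FGF23, was highest in rat at 83.9, against 69.3 and 61.2 in mouse and 64.9 to 72.8 in macaque. DKK1, a secreted Wnt antagonist, was high in mouse (92.0 and 84.7) and macaque (89.3 to 95.2) and had 0 reads in the rat calvaria, and 0 reads would place any rat gene at 9.38. The rat tibia had no reads of DKK1 either, so this absence was not peculiar to the skull and DKK1 was not tested between sites. HPGD, a prostaglandin-degrading enzyme, had 873 and 501 reads in mouse but 2 in rat and 4, 0 and 0 in macaque. Thus 2 of the 11 osteocyte genes, DKK1 and HPGD, had 0 reads in some calvaria library.

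SOST, which encodes the osteocyte Wnt inhibitor sclerostin, is not among the shared symbols, since its macaque row has a LOC name, and it was matched through RefSeq names. It had 20281 and 9181 reads in M4 and M8, 1717, 726 and 2203 in G1, G3 and T1, and only 5 in R1. The rat tibia had 15 reads of SOST, so its low count in rat was not peculiar to the skull. FGF23, the phosphate hormone of bone, matched the same way, lay at 37.1 and 31.2 in mouse, 9.62 in rat, which is 0 reads, and 38.0, 37.1 and 28.9 in macaque.

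The transcription factors of the osteoblast lineage were present in all species at a middle to high rank. RUNX2, the master factor of the lineage, lay at 76.6, 68.2, 69.5, 80.9, 76.3 and 79.7 in M4, M8, R1, G1, G3 and T1. DLX5, a homeobox factor of skull and limb bone, lay at 94.9, 79.1, 84.9, 95.7, 95.4 and 94.5, and MEF2C, which acts on the SOST enhancer, at 94.4, 89.4, 87.7, 86.5, 87.8 and 86.4. RUNX2 and DLX5 overlapped between mouse and macaque, and MEF2C lay slightly higher in mouse. SP7, osterix, which acts after RUNX2, lay at 97.0 and 90.8 in mouse and 86.5 to 89.8 in macaque and had 2 reads in the rat calvaria and 11 in the rat tibia. TWIST1, which holds cranial sutures open and whose loss closes them early, lay at 85.8 and 69.8 in mouse, 70.2 in rat and 93.8, 88.3 and 93.9 in macaque. In all, 4 of the 11 shared members (ATF4, DLX5, MEF2C and SOX4) lay in the top 25% of all 6 libraries.

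Matrix genes were alike at the top of the order and differed between species below it. Of 24 genes, 10 lay in the top 25% of all 6 libraries, among them COL1A1, COL5A2, the small proteoglycans DCN and LUM, the calcification inhibitor MGP and the collagen chaperone SERPINH1. BGLAP, osteocalcin, lay at 94.6 and 86.9 in mouse, 98.7 in rat and 100, 99.9 and 100 in macaque, and mouse reads can be split with the near-identical BGLAP2, so its mouse rank is uncertain. BGLAP2 itself had 709 reads in M4 and 2 in M8.

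Some matrix genes were low in 1 species only. COL1A2, the partner chain of COL1A1, had 384258 and 143890 reads in mouse and 275648, 224303 and 381963 in macaque but 0 in the rat calvaria and a percentile of 8.90, which is 0 reads, in the rat tibia. OMD and OGN, leucine-rich proteoglycans of bone, also had 0 reads in R1, against 6597 and 1053 reads of OMD in mouse and 721, 526 and 899 in macaque. SPARC, osteonectin, had 228479, 58241 and 43336 reads in M4, M8 and R1 and only 174, 227 and 312 in G1, G3 and T1. Its exonic length was 2903 bases in mouse, 2110 in rat and 1718 in macaque, and the macaque tibias lay at 69.1, 67.8 and 85.4, below the 99.9 of each rodent tibia. BGN, biglycan, fell from percentiles of 99.5, 99.0 and 88.2 in the rodents to 38.5, 33.5 and 28.0 in the macaques. For these genes a lower level and an incomplete gene model cannot be told apart.

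M4 and M8 differed widely for some matrix genes, chosen here after their values were seen. POSTN, periostin, a protein of periosteum and sutures, had 7100 reads in M4 and 937 in M8, 164 in R1, and 66, 81 and 47 in G1, G3 and T1. FMOD, fibromodulin, lay at 96.0 in M4 and 66.7 in M8, 46.8 in R1 and 40.2 to 43.6 in macaque. COL12A1, a collagen of dense connective tissue, lay at 80.3 in M4, 40.9 in M8, 63.4 in R1 and 76.8 to 82.3 in macaque. M4 was thus the highest library for POSTN and FMOD but not for COL12A1. Over 26 collagen chains the median percentile was 60.2 in M4 and 37.5 in M8, 35.2 in R1 and 55.3 to 56.5 in macaque.

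Of the genes of mineralization and phosphate handling, ALPL, the phosphatase that hydrolyses pyrophosphate, was the 1 of 11 in the top 25% of all libraries, at 97.6, 89.9, 93.0, 79.2, 83.3 and 90.4 in M4, M8, R1, G1, G3 and T1. ENPP1, which makes pyrophosphate, was highest in macaque at 92.3, 86.5 and 88.1, against 70.1 and 78.3 in mouse and 80.4 in rat. PHOSPHO1, a phosphatase of matrix vesicles, ran from 53.1 in R1 to 88.7 in M4.

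Receptors of calciotropic hormones were spread widely. PTH1R, the receptor of parathyroid hormone, ranked high in every library, at 98.1, 93.5, 84.3, 96.0, 98.3 and 95.9. VDR, the vitamin D receptor, had 4234 and 1336 reads in mouse but 10 in rat and 6, 0 and 0 in macaque. NR3C1, the glucocorticoid receptor, was the other receptor of 14 in the top 25% of all libraries, from 80.9 to 90.9. ESR1, the estrogen receptor alpha, lay at 51.0, 46.1 and 41.0 in the rodents and 71.9, 66.7 and 68.7 in the macaques.

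Osteoclast genes ranked higher in the rodents, with list medians of 92.3, 92.0 and 78.5 against 53.6, 50.5 and 52.3 in macaque. ACP5, tartrate-resistant acid phosphatase, and MMP9, a gelatinase that neutrophils also carry, were high everywhere. ACP5 lay at 99.7, 99.3, 99.2, 97.8, 98.0 and 98.4 in M4, M8, R1, G1, G3 and T1. CTSK, the collagen-degrading protease of osteoclasts, had 10133, 2842 and 6229 reads in the rodents and 165, 29 and 47 in the macaques, with G1 far above G3 and T1. NFATC1, the factor that drives osteoclast differentiation, lay at 77, 69.3 and 72.7 in the rodents and 33.6, 29.8 and 31.4 in the macaques, and OSTM1, a subunit of the osteoclast chloride transporter, at 94.7, 90.6 and 79.7 against 32.9, 33.1 and 35.7. NFATC1 and OSTM1 were the 2 members of 12 that lay at least 25 points apart without overlap, and 5.19% of all shared symbols did so in that direction.

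The cytokines that control osteoclasts also ranked in opposite ways. CSF1, which osteoclast precursors need to survive, had 2645, 1159 and 1456 reads in M4, M8 and R1 and 0 in all 3 macaque calvariae, and the macaque tibias had 0 as well. TNFSF10, the death ligand TRAIL, had 95, 69 and 2 reads in the rodents and 328, 320 and 300 in the macaques. It lay at least 25 points higher in macaque without overlap, which 3.18% of all shared symbols did. TNFSF11, the osteoclast-inducing ligand RANKL, was low, at 35.3 and 27.2 in mouse, 9.38 with 0 reads in rat, and 56.4, 48.2 and 48.7 in macaque. TNFRSF11B, its decoy receptor osteoprotegerin, lay at 43.5, 36.5 and 45.7 in the rodents and 63.2, 63.0 and 72.4 in the macaques. CXCL12, the stromal chemokine that holds marrow cells, ranked from 84.6 to 97.9 over the calvaria libraries. Its reads were 12261, 12174 and 14352 in M4, M8 and R1 but only 95, 103 and 54 in G1, G3 and T1.

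The 8 shared of 12 secreted Wnt antagonists took up high ranks in macaque, with list medians of 89.7, 88.8 and 87.8, against 86.8, 51.7 and 37.7 in M4, M8 and R1. Of the 4 matched through RefSeq names, SOST was high in macaque, at 98.2, 95.1 and 98.5 in G1, G3 and T1. SFRP2 lay at 48.2, 41.2 and 37.7 there, and SFRP5 and SOSTDC1 had 0 reads in these libraries. FRZB, a secreted frizzled-related protein, had 45, 15 and 6 reads in the rodents and 799, 684 and 1760 in the macaques, at percentiles of 90.1, 88.9 and 95.8. WIF1, which binds Wnt ligands, lay at 88.6, 77.8 and 81.9 in the rodents and 99.2, 99.2 and 98.7 in the macaques, and SFRP4, linked to cortical thinning when lost, at 93.6, 85.8 and 79.6 against 98.6, 98.4 and 96.0. DKK3 had 3299 reads in M4 and 205 in M8, at percentiles of 95.3 and 56.4, so its mouse rank rests on the library chosen. The ligands, receptors and transducers of the pathway ranked lower, with list medians between 32.9 and 40.5, and CTNNB1, the transducer beta-catenin, was the 1 of 27 in the top 25% of all libraries, at 94.3 to 98.8.

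In the BMP and TGFB pathways, 2 of 30 genes lay in the top 25% of every library, the inhibitor ID2 and the receptor TGFBR2. TGFB2, a ligand released by osteocytes, lay at 82.0, 70.2 and 71.4 in the rodents and 98.3, 98.0 and 97.9 in the macaques. BAMBI, a decoy receptor of the pathway, lay at 60.0, 53.9 and 73.8 against 99.2, 99.0 and 99.0. BAMBI lay at least 25 points higher in macaque, as did 1 further gene of the list, while GDF10 and GREM1 lay at least 25 points higher in the rodents. GDF10, also called BMP3B, had 6995 reads in M4, 955 in M8, 94 in R1 and 0 in every macaque calvaria. BMP4, a bone-inducing ligand, hardly differed in rank, at 65.9, 64.7, 69.1, 64.6, 63.6 and 67.5. NOG, the antagonist noggin, which keeps sutures open, lay at 88.0 in M4 and 61.4 in M8, 58.1 in rat and 87.7 to 92.7 in macaque.

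Growth factor binding proteins held the top of the FGF and IGF list. IGFBP4 lay between 95 and 98.7 and IGFBP7 between 93.7 and 97.6 in the 6 libraries. FGFR1, whose activating variants close cranial sutures, lay at 93.5, 86.0 and 93.6 in the rodents and 67.4, 64.9 and 66.1 in the macaques, and FGFR2, also tied to suture closure, at 87.7, 74.2, 71.9, 70.4, 72.1 and 66.3. IGFBP3, the main carrier of circulating IGF, lay at 55.1, 42.3 and 69.9 against 92.7, 92.2 and 84.3. Of the genes that sense load, PANX3, a channel of the skeleton, lay at 38.3, 29.8 and 42.6 in the rodents and 68.5, 70.2 and 70.5 in the macaques, and ITGB1, a subunit of matrix receptors, lay between 89.9 and 95.8 in all.

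The calvaria was also set beside the tibia of the same species. Within mouse and within macaque, sites were compared with edgeR's quasi-likelihood test on 7504 shared symbols with reads in each species, and a gene was called when its Benjamini-Hochberg adjusted p was under 0.2 and its fold over 1.1. In macaque, 1094 symbols were higher in the calvaria (14.6%) and 1042 lower (13.9%), and with library size alone in place of TMM factors the split was 886 to 1340. In mouse, 1 was higher (0.0133%) and 19 lower (0.253%) when M4 and M8 were set against M5 and M7. Without M8, 1012 were higher (13.5%) and 1001 lower (13.3%), and all 20 calls kept their direction, but this fit has 1 calvaria library that is assumed to vary like the tibias. Rat had 1 library a site and no test, and there 56 symbols had a log2 ratio of CPM (reads scaled to the library total) over 2 (0.746%) and 482 under -2 (6.42%), with 1 read added. The p-values measure the spread between these libraries.

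HOX genes, the positional code of trunk and limb, had few or no reads in the calvaria. Of 14 shared HOX genes 8 could be tested, most of them only through their tibia reads, so that their direction was fixed by the filter and their values are given without a count of calls. HOXC10, a hindlimb gene, had 0 reads in all 6 calvaria libraries, against 272 and 239 in M5 and M7, 107 in R3 and 252, 212 and 336 in G2, G4 and T2. HOXD10 also had 0 reads in all 6, against 9, 8, 4, 56, 55 and 148 in the same tibias. HOXA3 had 1 and 4 reads in mouse calvaria, 2 in rat and 1, 0 and 3 in macaque, against 80 and 56, 41, and 98, 145 and 80 in the tibias. No HOX calvaria value overlapped its tibia value for these 3 genes. HOXB7 was not absent from all calvariae, with 0, 0 and 0 reads in the rodents but 10, 11 and 14 in the macaques, where the tibias had 98, 52 and 194. HOXC6 had 77 reads in the rat calvaria and at most 3 in any other calvaria library. Of the 14 shared HOX genes, HOXB13, HOXC10 and HOXD10 had no reads in any calvaria.

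The limb factors followed the HOX genes in part. PITX1, which sets hindlimb identity, had 0 reads in all 6 calvariae and 93 and 59 in the mouse tibias, 4 in rat and 4, 14 and 2 in macaque, and TBX5, which sets forelimb identity, had 0 reads in all calvariae. SHOX2, a homeobox factor of the proximal limb, was present in the skull, with 1157 reads in M4 against 46 in M8, 15 in R1 and 152, 122 and 143 in macaque. The tibias had 4313 and 3872, 4290, and 578, 650 and 682, above the calvaria in every species. TBX15, which also acts in the skull, had 361 and 104 reads in mouse calvaria, 0 in rat and 213, 174 and 205 in macaque. Of 9 shared limb factors 6 could be tested, some only through their tibia reads, and no count of calls is given for them either.

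Factors that pattern the head did not move as a group. Of 17 tested, 5 were higher and 5 lower in the macaque calvaria, beside 14.6% and 13.9% of all tested symbols. In rat 4 lay past the ratio threshold in each direction, beside 0.746% above and 6.42% below. In mouse none was called with M8, and the median log2 difference was 0.34 with M8 and 0.85 without it. ZIC2, a factor of dorsal midline development whose calvaria and tibia reads did not overlap, had 271 and 49 reads in M4 and M8 against 2 and 0 in the mouse tibias, 10 against 0 in rat, and 42, 21 and 50 against 0, 0 and 0 in macaque. In macaque and rat ZIC2 passed the filter only through its calvaria reads, so its direction was fixed there and its call is no support. The counts above include it. In mouse it was not called with M8 (Benjamini-Hochberg adjusted p = 0.339 in edgeR's quasi-likelihood test). MEIS2, a HOX cofactor, had 184 and 42 reads in the mouse calvariae against 17 and 18 in tibia, 20 against 3 in rat, and 89, 80 and 65 against 26, 40 and 60 in macaque. PRRX1, a factor of head and limb mesenchyme, lay at 94.2 in M4, 74.0 in M8, 60.3 in R1 and 93.5 to 95.2 in the macaque calvariae.

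**Figure D3:**
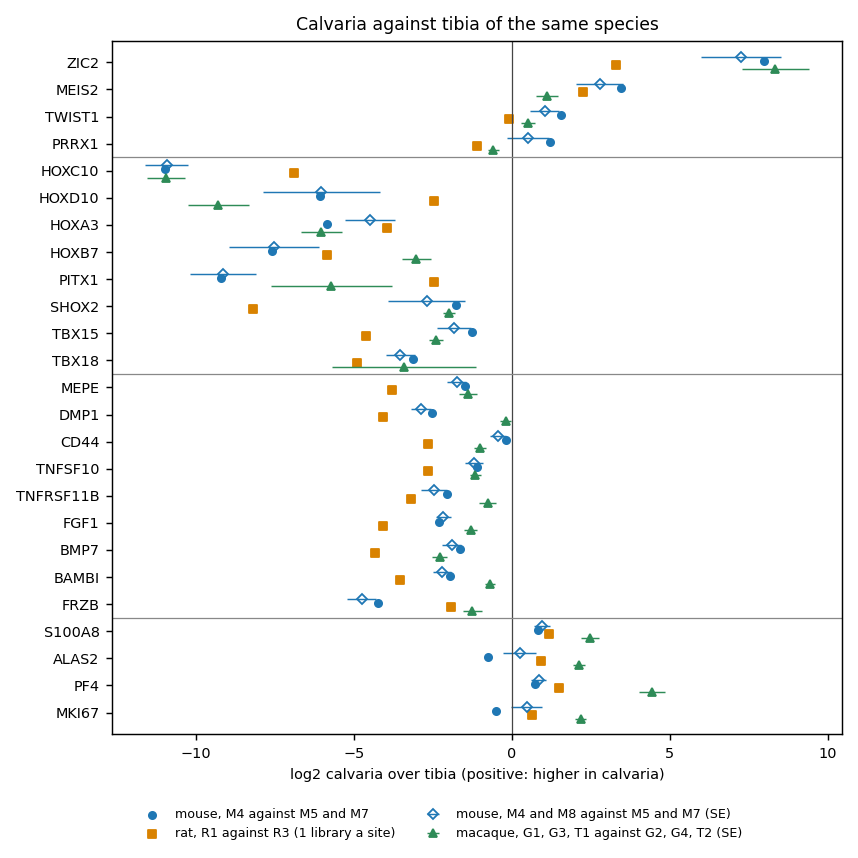
Log2 of calvaria over tibia within each species (x axis) for genes of 4 groups (y axis: head patterning, HOX and limb, bone signals, marrow and cycling cells); open blue diamonds show mouse with M8 and green triangles macaque, both with a bar of 1 SE, filled blue circles mouse without M8 and orange squares the rat ratio with 1 read added, without an error. HOXC10, HOXD10 and PITX1 had 0 reads in all calvariae, so their plotted values depend on the prior count, and TWIST1, PRRX1, ALAS2 and MKI67 change sign between the species or with M8.

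Osteocyte genes were lower in the calvaria than in the tibia in part of the tests. In macaque 5 of 10 were lower and 1 higher, beside 13.9% and 14.6% of all tested symbols. In mouse 1 was lower with M8, beside 0.253%, and in rat 6 had a ratio under -2, beside 6.42%. The median log2 difference of the 10 in mouse was -0.62 with M8 and -0.76 without it. MEPE had 580.3 and 390.3 CPM (scaled by TMM factors over the tested symbols) in M4 and M8 against 1357 and 1893 in M5 and M7, and 10248, 8933 and 10255 in G1, G3 and T1 against 31736, 31973 and 13611 in G2, G4 and T2. Calvaria and tibia did not overlap in either species. The macaque log2 difference was -1.39 ± 0.28 (SE, 3 against 3 libraries, Benjamini-Hochberg adjusted p = 0.00404 in edgeR's quasi-likelihood test). The mouse value was -1.74 ± 0.30 and was not called with M8 (adjusted p = 0.339, same edgeR test). DMP1 had 273 and 158 CPM in mouse calvaria against 1553 and 1623 in tibia and was among the 20 mouse calls, at -2.88 ± 0.33 (SE). In macaque DMP1 overlapped between sites, with 275, 340.1 and 335 in calvaria against 366, 447 and 277 in tibia, and it was not called (-0.20 ± 0.18). The rat calvaria had 3641 reads of MEPE against 45587 in the tibia, and 2243 of DMP1 against 34033.

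CAPG, an actin-capping protein of osteocytes and phagocytes, was the osteocyte gene that was higher in the macaque calvaria, with 229, 264 and 351 CPM against 131, 78.2 and 217. In mouse it had 319 and 306 against 290.1 and 259 and was not called. Neutrophil genes made up 23.6% to 31.9% of the summed per-kilobase level in the macaque calvariae against 6.14%, 6.09% and 9.99% in the tibias, and what part this share had in the lower osteocyte values was not tested.

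BMP and TGFB genes were lower in the macaque calvaria in part. Of 28 BMP and TGFB genes, 15 were lower in macaque and none higher, beside 13.9% of all tested symbols that were lower. In mouse 2 of the 28 were lower with M8, beside 0.253%, and in rat 8 had a ratio under -2, beside 6.42%. Their median log2 difference in mouse was -0.57 with M8 and -0.33 without it. Of 23 genes of the Wnt pathway, 6 were lower in macaque and 0 higher. Their median log2 difference in mouse was -0.18 with M8 and 0.00 without it. BMP7, a ligand that induces bone, had 29.6, 28.2 and 51.3 CPM in the macaque calvariae against 176, 168 and 192 in the tibias, and in mouse 21.3 and 13.9 against 59.8 and 73.0. FRZB had 5.61 and 2.20 in mouse calvaria against 107 in both tibias, a log2 difference of -4.75 ± 0.46 (SE). In macaque FRZB had 185, 166 and 412 against 661, 753 and 408 (-1.25 ± 0.31), so T1 overlapped T2 there. FGF1, a growth factor, had 17 and 20.5 in mouse calvaria against 76.2 and 93.0, and 49.0, 41.8 and 30.5 in macaque against 101, 107 and 91.9. FRZB, FGF1, BAMBI and ID4 were among the 20 mouse calls and were also lower in the macaque calvaria.

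The other lower mouse calls were SEMA3E, NT5E, CLU, ANXA8, MYOC, MFI2, FXYD3, TG, HTRA4, HOXC6, HOXC10, ADIPOQ, NDRG1, TBX18 and DMP1. HOXC10 passed the filter only through its tibia reads, so its direction was fixed and its call is no support. The 1 higher row was MIR451, the locus of an erythroid microRNA. MIR451 had 6141 and 8213 reads in M4 and M8 against 1835 and 1593 in M5 and M7, a log2 difference of 2.26 ± 0.29 (SE). NDRG1, a gene that hypoxia and differentiation raise, had 456 and 476 CPM in mouse calvaria against 2579 and 3549.7, and 442, 466 and 454 in macaque against 1174, 1054 and 594. Its calvaria and tibia values did not overlap in either species.

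Most tested genes of the marrow cell and cell cycle lists were higher in the macaque calvaria. Of the tested members, 7 of 8 erythroid, 8 of 9 neutrophil, 5 of 8 megakaryocyte, 5 of 6 B cell and 16 of 19 cell cycle genes were higher there, beside 14.6% of all tested symbols. GP9, 1 of the 5 megakaryocyte genes, had 0 reads in the macaque tibias, so its direction there was fixed by the filter. In mouse, no gene of these lists was called with M8. The median log2 difference in mouse moved from 0.56 with M8 to -0.35 without it for erythroid genes and from 0.45 to -0.12 for cell cycle genes. It moved from 0.62 to 0.17 for neutrophil genes, from 0.44 to -0.14 for megakaryocyte genes and from 0.15 to 0.16 for B cell genes. S100A8 had 29427, 42276 and 49736 CPM in G1, G3 and T1 against 5858, 5484 and 10600.4 in G2, G4 and T2 (log2 difference 2.47 ± 0.29, SE). PF4, platelet factor 4, had 122, 144 and 245 against 3.36, 6.13 and 13.8. MKI67, a marker of cycling cells, had 1219.8, 1114 and 1537 against 252, 281 and 319.9. None of these 3 genes overlapped between the macaque sites. In mouse MKI67 had 691 in M4 and 1987 in M8, below and above the tibias at 957 and 982.

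Erythroid genes were high in all calvariae, and M8 lay above M4 in each of the 8. ALAS2, the first enzyme of heme synthesis in red cell precursors, lay at 97.2 in M4, 99.2 in M8, 99.7 in R1 and 99.2 to 99.4 in macaque. TFRC, the transferrin receptor, had 1499, 2827 and 5854 reads in the rodents and 39, 14 and 65 in the macaques. LCN2, a neutrophil granule protein, lay at 99.9 in the 3 rodent libraries and at 83.6, 75.9 and 76.9 in macaque, and S100A9, the partner of S100A8, had 3448, 5477 and 7894 macaque reads against 845225 in rat.

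Markers of other cells that a bone piece can hold differed in rank between species. Macrophage genes had list medians of 90.5, 88.1 and 89.5 in the rodents and 65.0, 66.4 and 60.6 in macaque, where C1QA, a complement subunit of resident macrophages, still lay at 93.2, 94.5 and 95.6. Endothelial and pericyte genes ranked higher in macaque, with medians of 68.9, 67.1 and 64.2 against 51.7, 51.8 and 51.7, and PECAM1, an endothelial adhesion molecule, lay at 96.3, 96.4 and 95 against 57.2, 62.9 and 76.6. GZMB, a granule protease of cytotoxic lymphocytes, had 6, 0 and 2 reads in the rodents and 316, 482 and 336 in the macaques. Skin genes were nearly absent, with KRT14 at 0 reads in all 6 libraries, and the neural markers NEFL and NEFM lay at or below 33.4.

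Skeletal muscle genes set the mouse calvaria apart. ACTA1, muscle actin, had 7536 and 3323 reads in M4 and M8, 25 in R1 and 4, 17 and 2 in G1, G3 and T1, and TNNC2, fast troponin C, lay at 99.7 and 99.5 in mouse, 52.9 in rat and 34.7, 12.3 and 40.1 in macaque. The 14 muscle genes made up 0.395% and 0.210% of the summed per-kilobase level in M4 and M8, and between 0.00129% and 0.00166% in rat and macaque calvaria. Muscle also differed between tibias, at 0.0711% in M5, 0.359% in M7 and 0.293% in R3. CKM, muscle creatine kinase, was among the genes ranked far above the other species in mouse. In rat 11 of 12 tested muscle genes had a calvaria over tibia ratio under -2, beside 6.42% of all tested symbols. Adipocyte genes held FABP4, a lipid carrier, at 98.2 to 99.8 everywhere, but UCP1 at or below 18.5. Cartilage genes had medians of 25.2 to 36.2. COL2A1, the collagen of cartilage, had 909 and 137 reads in mouse calvaria against 10478 and 6963 in tibia, and 0 against 41 in rat. In macaque COL2A1 went the other way, with 43, 41 and 80 reads in calvaria against 9, 2 and 46 in tibia. It was called higher in the macaque calvaria (log2 difference 1.79 ± 0.68, SE) and was not called in mouse with M8.

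Stress and early response genes ranked higher in the macaque calvaria, with list medians of 92.1, 90.8 and 84.2 against 61.9, 52.7 and 61.0 in the rodents. HSPH1, a heat shock protein of the HSP110 family, had 814, 1228 and 1166 reads in the rodents and 17196, 16872 and 10219 in the macaques. EGR1, an early response factor, lay at 96.0, 89.9 and 44.3 against 99.3, 99.0 and 99.3. FOS was ordered the other way, at 94.2, 90.3 and 95.2 against 36.4, 37.4 and 50.7. The list made up 1.95%, 1.79% and 1.37% of the summed per-kilobase level in the macaque calvariae and 0.180% to 0.435% in the rodents. The macaque tibias had similar shares, at 1.65%, 1.74% and 1.35%. Against the tibia, 9 of 16 stress genes were higher in the macaque calvaria and 1 lower, beside 14.6% and 13.9% of all tested symbols. FOSB, 1 of the 9, had 0 reads in the macaque tibias, so its direction there was fixed by the filter. HSPH1 had 3979, 4102 and 2394 CPM in calvaria against 492, 483 and 494 in tibia. No stress gene was called in mouse with M8, and the list's median log2 difference was 0.09 with M8 and 0.23 without it.

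Some glycolytic genes had very few reads in mouse. GAPDH and ENO1, enzymes of glycolysis, had 15 and 13 and 3 and 7 reads in M4 and M8, against 2455, 3293 and 3291 and 6687, 7400 and 8231 in the macaques. Near-identical copies of both genes exist in the genome, so their ranks are uncertain, and the part of shared reads was not tested. LDHA, lactate dehydrogenase A, lay at 98.7, 99.1, 85.3, 93.1, 91.5 and 92.6. Respiratory chain genes were high in all, with medians from 93.9 to 98.1 and 24 of 40 members in the top 25% of every library.

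Symbols whose ranks did not overlap between macaque and rodent calvaria, with at least 25 points between the nearest libraries, numbered 818. In 311 of them the macaque was higher and in 507 the rodents were higher, and without M8 the counts were 350 and 547. The tibia showed the same gap for 232 of the 311 (74.6%) and 430 of the 507 (84.8%), and without M8 for 248 of the 350 and 451 of the 547. The lower side had 0 reads in every calvaria library for 55 of the 311 and 152 of the 507 (66 and 159 without M8), and at most 3 reads in each library of that side for 73 and 233 (88 and 241 without M8). The exonic length of the macaque gene model was shorter than that of mouse, with a median ratio of 0.787 over all shared symbols, 0.80 for those higher in macaque and 0.614 for those higher in the rodents. Length was not tested as a cause.

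Among symbols with the widest gaps in favour of macaque, CSTA, a protease inhibitor of the cystatin family, had 1456, 2093 and 1534 reads in G1, G3 and T1 and 0 in M4, M8 and R1. PNOC, the precursor of nociceptin, had 3005, 3205 and 2492 against 0, and GSTM3, a glutathione transferase, 340, 443 and 271 against 0. ERBB3, a receptor of neuregulins, had 2011, 2386 and 2041 against 0, 2 and 0. For these genes the rodent libraries gave at most 2 reads. Of symbols with more than 3 reads in a library of the low side, chosen after their values were seen, MS4A4A, a membrane protein of myeloid cells, had 527, 512 and 1069 reads in macaque against 17, 9 and 4.

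In favour of the rodents, LGMN, a lysosomal protease, had 3748, 2590 and 1457 reads in M4, M8 and R1 and 0 in each macaque calvaria. MYD88, the adaptor of Toll-like receptors, had 1331, 1442 and 1446 against 0, and MYL9, a myosin light chain of smooth muscle and fibroblasts, 2187, 696 and 1584 against 0. Among those with more than 3 reads in a library of the low side, chosen likewise after the values were seen, APOE, the apolipoprotein of macrophages and osteoblasts, had 11477, 6145 and 3860 reads against 3, 0 and 4, CXCR4, the receptor of CXCL12, had 1043, 2232 and 2961 against 4, 0 and 2, and S100A11, a calcium-binding protein, had 4015, 5634 and 2989 against 1, 2 and 4. The macaque values of all 3 were thus at most 4 reads in a library.

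**Figure D4:**
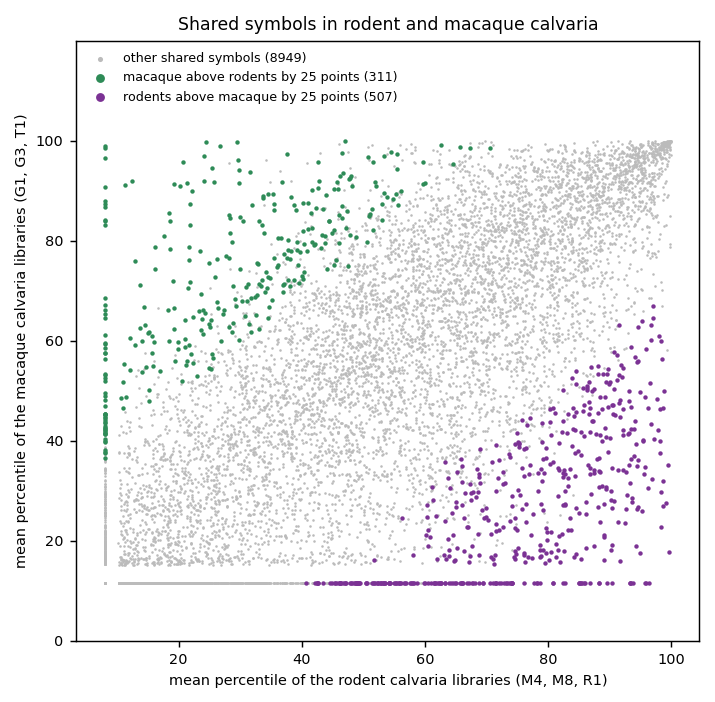
Mean percentile rank of each of 9767 shared symbols in the rodent calvaria libraries (x axis) and in the macaque calvaria libraries (y axis); green marks 311 symbols with every macaque library at least 25 points above every rodent library, purple the 507 with the reverse, grey the rest. Points in a line at the left or bottom edge are symbols with 0 reads in all libraries of that side, 55 of the green and 152 of the purple.

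Single rodent species also stood apart. In rat, NDUFA1, a respiratory chain subunit, GNG11, a G protein subunit, and EIF3H, a translation factor, had 0 reads in R1 although they lay at 96.4 or above in every other calvaria library. ATP6V0C, a proton pump subunit, had 18125 reads in R1 and 0 in the other 5. In mouse, ANXA11, an annexin, had 1 read in both M4 and M8 against 3198 in rat and 3242, 3045 and 2353 in macaque, and C7, a complement component, had 0 against 3841, 3153, 3011 and 1392. LY6D, a surface protein of B cell precursors and epithelia, had 520 and 409 reads in mouse and 0 in every other calvaria library. By the same rule, 124 symbols lay above and 130 below the other species in mouse, and 118 above and 288 below in rat, where 1 library cannot show a spread. Without M8 these counts were 201 and 205 in mouse and 177 and 350 in rat.

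Within species the widest differences were few. Among the widest differences with M8 above M4 were IFI44L, an interferon-induced gene with 110 against 0 reads, CARTPT, a neuropeptide precursor with 124 against 2, and MARCO, a scavenger receptor of macrophages with 297 against 13. M4 exceeded M8 most for A2M, a protease inhibitor with 474 against 0, TRIM5 with 565 against 2, SHOX2, and HSPA8 with 5625 against 99. Among the macaques, TNNI3, the heart troponin I, had 3, 17 and 129 reads in G1, G3 and T1, CST3, cystatin C, 173, 25 and 1358, HP, haptoglobin, 18, 21 and 138, SLC23A3 87, 108 and 2, and AKR1B10 76, 45 and 2. T1 was thus the library that stood out for these 5 genes, in either direction.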

How the data were processed

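Poly(A)+ RNA of 12 bone libraries was sequenced in single reads. The authors mapped the reads to mm10, rn6 or MacaM (HISAT2 in the study's methods, BWA 0.7.10-r789 in the submitters' processing notes) and counted them on merged exons with HTSeq-count without regard to strand. As deposited, the raw counts are unnormalized reads per gene. The normalized signal that the authors give beside them, and their fold changes and p-values, were not used. The exonic length that the authors list for each gene was used to divide the counts.

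The symbol is the text before the first comma of a gene's description in upper case, and genes with the same symbol were summed. Reads per kilobase were ranked among the 9767 symbols of all 3 species, with ties averaged. Species were described, not tested, and a species value is the mean percentile of its libraries. Macaque LOC genes were named from a RefSeq table of another assembly for names only (5939 received a symbol).

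Within mouse and macaque, calvaria and tibia counts of 7504 symbols were compared by the quasi-likelihood F test of edgeR 4.0.16 (R 4.3.3), scaled by TMM and with Benjamini-Hochberg adjustment. The standard error of a log2 difference is its size over the square root of F. Rat was compared by a log2 ratio of CPM with 1 read added. Python 3.11.15 and pandas 2.3.3 were used for ranks, and the tests were checked on simulated data. Alternatives were DESeq2 1.42.0, other scalings and filters, assumed replicate blocks and fits without each library.

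Named genes were members of the lists, the 25 highest symbols by mean percentile, the 10 widest gaps between macaque and rodents in each direction, the 5 widest for mouse or rat alone, the 5 widest differences within species, and the 10 highest genes outside the shared symbols of each species. Genes chosen after their values were seen are named as such. Some named genes are not reported here. The members and lists were chosen with earlier results of these data known.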

Additional observations from a re-analysis of the deposited data

Results flagged for a closer look

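For 2 genes called in both mouse and macaque, all calvaria libraries lay below all tibia libraries in mouse and above them in macaque. ADIPOQ, the adipocyte hormone adiponectin, had 25.3 and 16.6 CPM in M4 and M8 against 130.4 and 97.3 in M5 and M7, a log2 difference of -2.44. In macaque it had 8.56, 8.27 and 3.51 CPM in G1, G3 and T1 against 2.10, 1.31 and 3.35 in G2, G4 and T2, a log2 difference of 1.57, on 6 to 37 reads. TG, the thyroglobulin gene, had 33.8 and 44.6 CPM against 195 and 231 in mouse, a log2 difference of -2.44. In macaque TG had 47.2, 51.1 and 48.3 CPM against 18.7, 31.7 and 30.9, a log2 difference of 0.85. The difference between the species was not tested. FABP4, another adipocyte gene, had 959 and 361 CPM against 1943 and 1710 in mouse and 3636, 4925 and 3242 against 1375, 1304 and 2747 in macaque, and its mouse difference was not called with M8. Without M8 the mouse log2 difference was -2.17 for ADIPOQ and -2.65 for TG.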

How the results depend on the processing

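No gene called in mouse and no list gene called in macaque changed sign in the settings run. The macaque split of 1094 higher and 1042 lower turned to 886 and 1340 with library size alone, 1067 and 1081 with a read in every library, and 1321 and 1341 with the replicate block. In mouse, ALAS2 (0.24, not called) and MKI67 (0.47, not called) turned to -0.77 and -0.49 without M8. With a read required in every calvaria library, the median rho fell to 0.562 and the top 10% to 187 symbols. With exonic lengths within 1.5-fold, 155 symbols were in the top 10%, 305 ranked apart and 3 lists lay above 75 in all libraries, over fewer symbols (4571). Leaving out each calvaria library gave rho of 0.687 to 0.70, 331 to 430 symbols in the top 10%, 28 to 31 of the top 100, 6 to 7 lists and 883 to 1340 symbols ranked apart, the highest without the rat, where 590 were higher in macaque. The top 100 of 3 species could not be computed without the rat.

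The mouse count of 20 moved in 11 of 14 settings. It was 0 at an adjusted p under 0.05 in edgeR (542 at an unadjusted p under 0.05), 191 with DESeq2, 6 with a read in every library, 39 without a filter, 32 with LOC genes named and 510 over all mouse symbols. It was 3629 without M4, 2013 without M8, 8 without M5 and 6 without M7. No labels name the pairs of calvaria and tibia, so the replicate block rests on assumed pairs and called 21 genes, or 56 with the pairs crossed. The macaque count of 2136 was 1045 at an adjusted p under 0.05 in edgeR, 3724 over all macaque symbols, 2662 with a replicate block for assumed pairs, and 1316 (without G2) to 2672 (without T2) with 1 library left out. The rat count of 538 was 298 with 5 reads added. The cause was not tested except where fewer or more symbols were tested. Of the alternative values for list genes called in macaque, 308 of 64 genes missed the threshold and 2390 did not, while in mouse 61 missed it and 216 did not, with each of the 20 genes missing it in some setting. Of the mean percentiles of named genes, 283 alternative values in 92 of 103 results moved beyond the spread between replicates and 641 did not. Depth limits symbols with few reads, and rat has no replicates.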

Other observations

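Genes outside the shared symbols carried much of the calvaria RNA. Globin genes held 3.41% and 6.77% of the reads on genes in M4 and M8, 15.6% in R1, and 4.26%, 4.83% and 5.88% in G1, G3 and T1. M8 and R1 thus had larger globin shares than M4 and the macaques. Alpha-globin of rat (HBA1 and HBA2) had 682710 and 532963 reads. Mouse HBB-BS, a beta-globin, made up 5.80% of the per-kilobase level in M4 and 9.61% in M8.

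Defensins, the antimicrobial peptides of neutrophil granules, were among the 10 highest non-shared genes in rat and macaque. RATNP-3B had 332291 reads and NP4 114078 in R1. MNP1A, alpha-defensin 1A, made up 6.46% and RTD1A, a theta-defensin precursor, 3.43% of the mean per-kilobase level of the macaque calvariae. The mouse table had no defensin among its 10 highest non-shared genes. TMSB4X, thymosin beta 4, was among the 10 in mouse and rat, at 1.62% in M4, 1.54% in M8 and 2.06% in R1.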
